A study of Sus scrofa with 22 samples.

Results

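NR4A2, NR4A3, EGR1, FOSL2, IER3, IER5, GADD45B, CREM, KLF11 and TGIF1 are 10 genes that cells switch on soon after a stimulus, and their levels are described here in the blood mononuclear cells of mini pigs. Every probe set of the porcine array that was annotated to exactly 1 of these symbols was taken, which gave 21 of 24123 probe sets, for 10 of the 6765 genes named by a probe set with 1 symbol. Of the 21, 20 passed the filter on dim probe sets, a log2 value above 5 in at least 2 arrays. The other one, IER5 Ssc_19350_2_S1_at, lay between 3.47 and 4.33 and was not tested. The 20 were above 5 in all 22 arrays, with 5.05 for CREM Ssc_7444_1_A1_at as the lowest value, so none of them passed through a single group. A further 4 probe sets carried FOSL2 together with another symbol and were left out.

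Immediate early genes are transcribed from factors that are already present in the resting cell, chiefly CREB, which responds to cyclic AMP, and SRF with its partners, which respond to ERK signalling. NR4A2 and NR4A3 are orphan nuclear receptors whose activity follows their abundance rather than a ligand, and in T cells they mark recent antigen receptor signalling. EGR1 and FOSL2 are DNA-binding factors of the zinc finger and AP-1 families. CREM binds the same sites as CREB and, in its short inducible form, represses them. KLF11 and TGIF1 are repressors linked to TGF-beta signalling, while IER3, IER5 and GADD45B act in stress responses and survival. Mononuclear cells of blood are lymphocytes and monocytes.

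The design asked what a high-fat diet does to gene expression in these cells, and what resveratrol, a plant polyphenol, does on top of it. The groups were pigs on the high-fat chow with resveratrol for 9 months (2 females, 2 males; 20% beef tallow, 8 mg per kg body weight per day), pigs on the high-fat chow alone for 9 months (2 females, 2 males; 20% tallow), control pigs on normal chow for 9 months (2 females, 2 males; 5% tallow), and pigs at time 0, before the diets (5 females, 5 males). The labels name the time 0 pigs as the control group (basal), and they are entered at 5% tallow without resveratrol. The 22 arrays came from 20 pigs, because female 8 and male 25 were measured at time 0 and again on the control diet at 9 months. Per the labels, each array is a separate blood sample, heparinised blood was separated on a density gradient soon after collection, and sterile conditions were kept to limit monocyte activation.

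Markers of the named cell types were present in all 22 arrays, with log2 values of 11.25 to 12.28 for the T cell gene CD3E, 7.83 to 9.90 for the monocyte gene CD14 and 8.82 to 10.62 for the B cell gene CD79B. The number of arrays limits the precision, and the 8 groups of condition and sex shared 1 estimate of the spread. The poly-A control probe sets, which read RNA put into each sample ahead of the labelling reaction, split the arrays into 4 sets that no label names, called spike-in sets here and read from the mean log2 value of those probe sets. Set A held time 0 females 6 and 10 (9.12 and 9.15) and set B the other 8 arrays of time 0 (7.58 to 7.85). Set C held 7 arrays of 9 months (8.39 to 9.02) and set D the other 5 (9.93 to 10.61). The cut was made at the widest gap within each time, so the sets cannot cross time, and set A lay close to the top of set C. Both high-fat females lay in set D, while both control females of 9 months lay in set C.

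The genes were chosen by their female minus male difference at time 0, and the change with time may have been in view as well. Values of both contrasts are therefore given below as descriptions with no test. The diets and the sex difference at 9 months were tested.

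**Figure D1:**
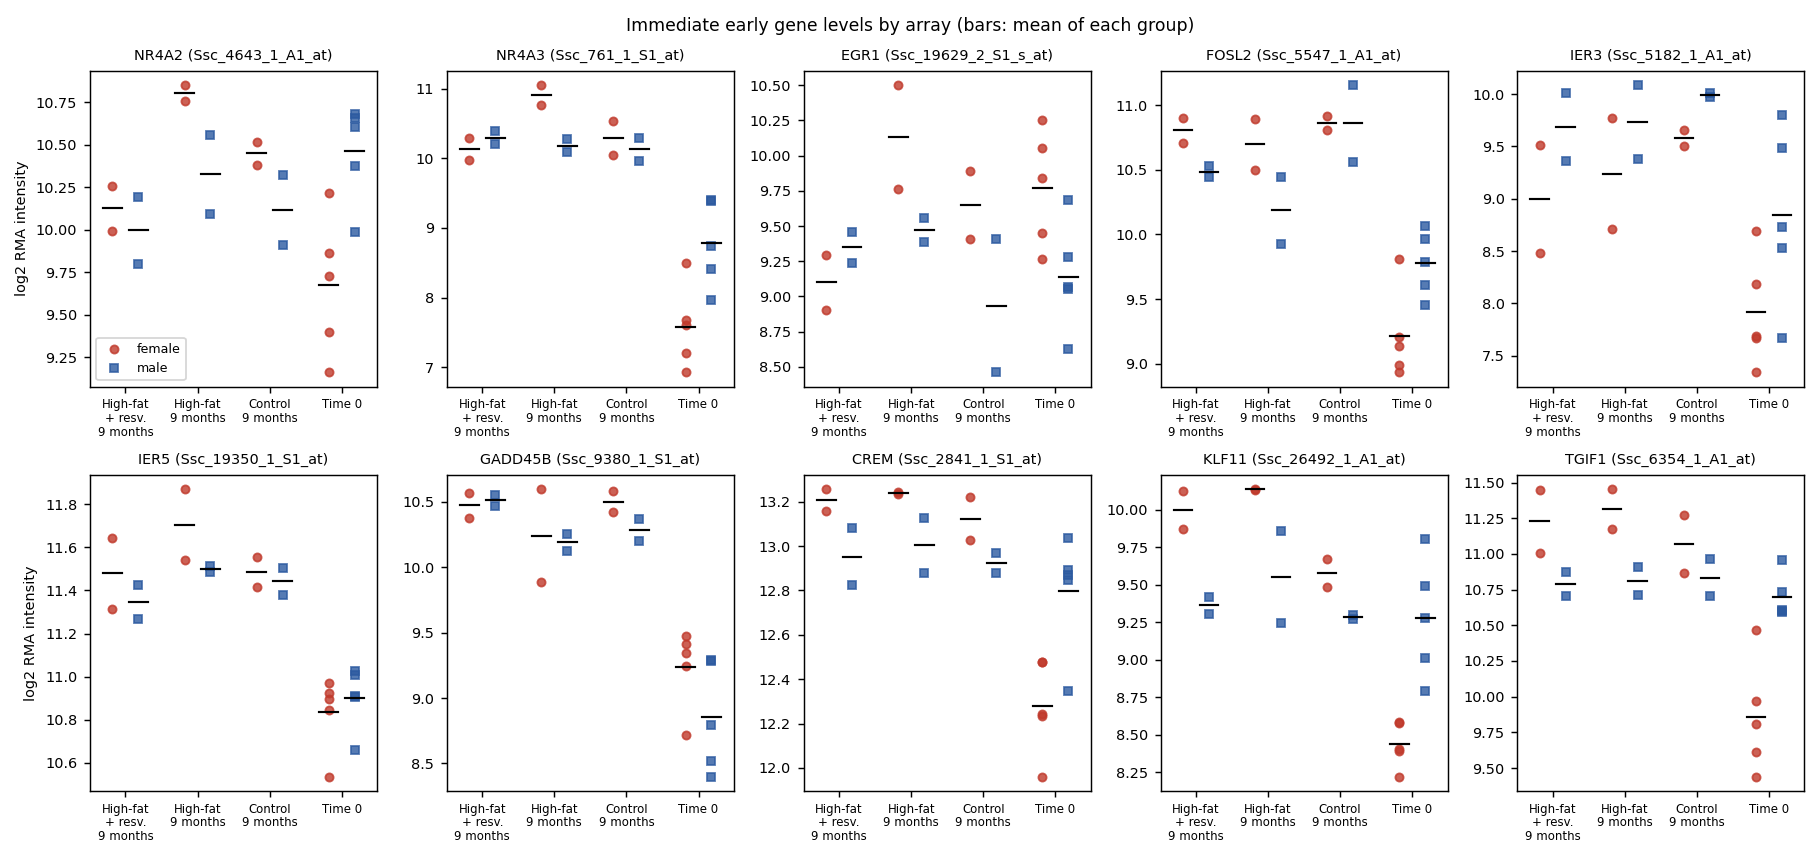
Log2 RMA intensity (y axis) of the brightest probe set of each gene in every array, by condition (x axis), with females as red circles, males as blue squares and a bar at the mean of each group. NR4A3 lies between 9.96 and 11.06 at 9 months and between 6.92 and 9.40 at time 0, and the levels of different panels are not comparable.

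Sex at time 0. Before the diets, female cells had lower values than male cells for most of these genes: 15 of the 20 probe sets had negative female minus male differences and 5 positive ones. The median difference was -0.54 on the log2 scale, against 0.01 over all 17240 probe sets tested, and the members ranged from -1.20 to 0.63. The negative ones were the NR4A receptors, FOSL2, IER3, IER5, CREM, KLF11 and TGIF1. The positive ones were all probe sets of EGR1 and GADD45B.

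NR4A3 Ssc_761_1_S1_at was at 7.60, 7.20, 6.92, 8.50 and 7.67 in females 6, 8, 10, 17 and 20, and at 8.74, 8.41, 7.96, 9.39 and 9.40 in males 11, 12, 15, 24 and 25. Female 17 lay above males 12 and 15 and made the groups overlap, and the means were 7.58 ± 0.60 and 8.78 ± 0.63 (SD, n = 5 each), so the female value was 0.435 of the male value. Its other probe set, Ssc_761_2_S1_a_at, differed by -0.82. NR4A2 Ssc_4643_1_A1_at was at 9.86, 9.40, 9.16, 10.21 and 9.73 in the females and at 10.60, 10.38, 9.99, 10.68 and 10.66 in the males. Again female 17 was the highest female, and male 15, the lowest male, was the only male below that female's value. The means of NR4A2 were 9.67 ± 0.41 in females and 10.46 ± 0.29 in males (SD, n = 5 each).

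KLF11, a repressor that the TGF-beta pathway induces, and TGIF1, a corepressor of the SMAD proteins, did not overlap between the sexes. KLF11 Ssc_26492_1_A1_at was at 8.58, 8.22, 8.39, 8.41 and 8.59 in the females and at 9.80, 9.49, 9.28, 9.01 and 8.79 in the males, a difference of -0.84. The females lay close together (SD 0.15) and the males were spread (SD 0.40). TGIF1 Ssc_6354_1_A1_at was at 9.62, 9.81, 9.44, 10.46 and 9.97 in the females and at 10.96, 10.73, 10.59, 10.61 and 10.60 in the males, a difference of -0.84. Here the females were the spread group. The second probe sets of KLF11 (-0.82) and TGIF1 (-0.93) did not overlap either.

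CREM gave differing pictures by probe set. Ssc_2841_2_S1_a_at and Ssc_2841_1_S1_at, both bright, differed by -0.86 and -0.52, and Ssc_7444_2_S1_at and Ssc_7444_1_A1_at by -0.21 and -0.02. IER3, an inhibitor of apoptosis in many cells, differed by -0.93, with 8.18, 7.34, 7.69, 8.69 and 7.66 in the females and 8.73, 8.53, 7.67, 9.80 and 9.49 in the males. FOSL2 differed by -0.56. EGR1 went the other way: its 3 probe sets differed by 0.52, 0.22 and 0.63, and Ssc_16460_1_S1_at was higher in each female than in any male. GADD45B, a stress sensor that acts on MAP kinase signalling, differed by 0.27 and 0.38.

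Over the 20 probe sets, 4 were lower and 1 higher with no overlap of the sexes and 15 overlapped. Among all probe sets tested, 3.25% did not overlap (1.51% lower, 1.74% higher), and the limma fit called 1.07% at an adjusted p under 0.05 (0.574% lower, 0.493% higher). Since this contrast chose the members, nothing is read from these shares. Without females 6 and 10 of spike-in set A the differences were -0.68 for NR4A2, -0.99 and -0.49 for NR4A3, -0.87 and -0.81 for KLF11, -0.62 and -0.60 for TGIF1, -0.95 for IER3 and -0.46 for FOSL2. For IER5 they were -0.11 and -0.15, for EGR1 0.37, 0.25 and 0.38, and for GADD45B 0.24 and 0.48. CREM gave -0.89 and -0.57 in its bright probe sets, -0.28 in Ssc_7444_2_S1_at and 0.03 in Ssc_7444_1_A1_at, which changed sign. In these bulk samples, fewer cells of a type and less RNA per cell cannot be told apart. The list means of the sexes at time 0 were 9.39 ± 0.22 in females and 9.27 ± 0.17 in males for 14 monocyte genes, and 10.77 ± 0.14 in females and 10.89 ± 0.09 in males for 9 T cell genes (SD, n = 5 each). The mean of 6 platelet genes was 8.69 ± 0.33 in females and 9.16 ± 0.22 in males (SD, n = 5 each), with negative differences in 6 of 6, a median of -0.51 and 0 called in limma. IL7R (-0.42) was the T cell gene called and AIF1 (0.53) the monocyte gene. The 3' minus 5' difference of the actin control probe sets, a measure of RNA quality, was 1.57 ± 0.64 in females and 1.28 ± 0.33 in males. A second actin pair gave 0.12 ± 0.29 in females and -0.05 ± 0.15 in males (SD, n = 5 each). The part of markers and RNA quality in the member differences was not tested.

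Control diet at 9 months against time 0. The same genes were mostly higher at 9 months, and NR4A3 gave the widest difference. Of the 20 probe sets, 16 had positive and 4 negative differences, with a median of 0.59 against -0.01 over all probe sets tested. EGR1, with negative values for all 3 probe sets, and CREM Ssc_7444_1_A1_at were the exceptions.

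NR4A3 Ssc_761_1_S1_at was at 10.05 and 10.53 in control females 18 and 8 and at 9.96 and 10.30 in control males 16 and 25. Each of these exceeded every value at time 0, and the means were 10.21 ± 0.26 (SD, n = 4) at 9 months and 8.18 ± 0.86 (SD, n = 10) at time 0, a difference of 2.03 or 4.09-fold. NR4A2, its close relative, differed by 0.21 and overlapped, with 10.28 ± 0.26 (SD, n = 4) at 9 months and 10.07 ± 0.53 (SD, n = 10) at time 0. By sex, NR4A2 differed by 0.78 in females and -0.35 in males, and NR4A3 Ssc_761_1_S1_at by 2.71 in females and 1.35 in males.

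FOSL2, an AP-1 subunit that persists longer than FOS after a stimulus, was at 10.81, 10.92, 11.16 and 10.56 in the control pigs of 9 months and at 8.93 to 10.06 at time 0, a difference of 1.36. GADD45B differed by 0.87 and 1.34, IER5, a regulator of the heat shock response, by 0.60 and 0.58, and IER3 by 1.41. All but IER3 were free of overlap, since male 24 of time 0 had an IER3 value of 9.80. CREM Ssc_2841_2_S1_a_at was at 12.68, 13.03, 12.70 and 12.58 at 9 months and at 10.85 to 12.33 at time 0, without overlap.

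For KLF11 and TGIF1 the female and male differences were far apart. The sex difference at time 0, which chose the members, enters this gap. For members lower in females at time 0, a wider female difference is therefore in part built in. KLF11 Ssc_26492_1_A1_at differed by 1.14 in females (9.58 ± 0.13 at 9 months, n = 2; 8.44 ± 0.15 at time 0, n = 5, SD) and by 0.01 in males (9.29 ± 0.02 at 9 months, 9.28 ± 0.40 at time 0). TGIF1 Ssc_6354_1_A1_at differed by 1.21 in females and 0.14 in males. In females 15 of 20 probe sets lay above every value of time 0 and 1 below, and in males 9 above and 2 below. Among all probe sets tested, 35.7% were free of overlap in females (16.5% above, 19.1% below) and 36.6% in males (16.8% above, 19.8% below).

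Over both sexes, 8 member probe sets lay above all values of time 0, 1 below (CREM Ssc_7444_1_A1_at), and 11 overlapped. Over all probe sets tested 15.2% were free of overlap (6.54% above, 8.64% below), and limma called 39.0%. With all 12 arrays of 9 months, whatever the diet, 6 lay above time 0 (both NR4A3 and both GADD45B probe sets, IER5 Ssc_19350_1_S1_at and CREM Ssc_2841_2_S1_a_at) and 0 below, against 7.06% of all probe sets free of overlap (3.35% above, 3.72% below).

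The 2 pigs measured at both times differed in how far they moved. In female 8, 17 of 20 probe sets were higher at 9 months, with a median change of 1.03, and NR4A3 Ssc_761_1_S1_at changed by 3.33 (10.53 at 9 months, 7.20 at time 0). In male 25, 15 of 20 were higher, with a median of 0.43, and the same probe set changed by 0.90 (10.30 at 9 months, 9.40 at time 0). NR4A2 changed by 1.12 in female 8 and by -0.34 in male 25. These are single animals, so the changes have no replicate.

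**Figure D2:**
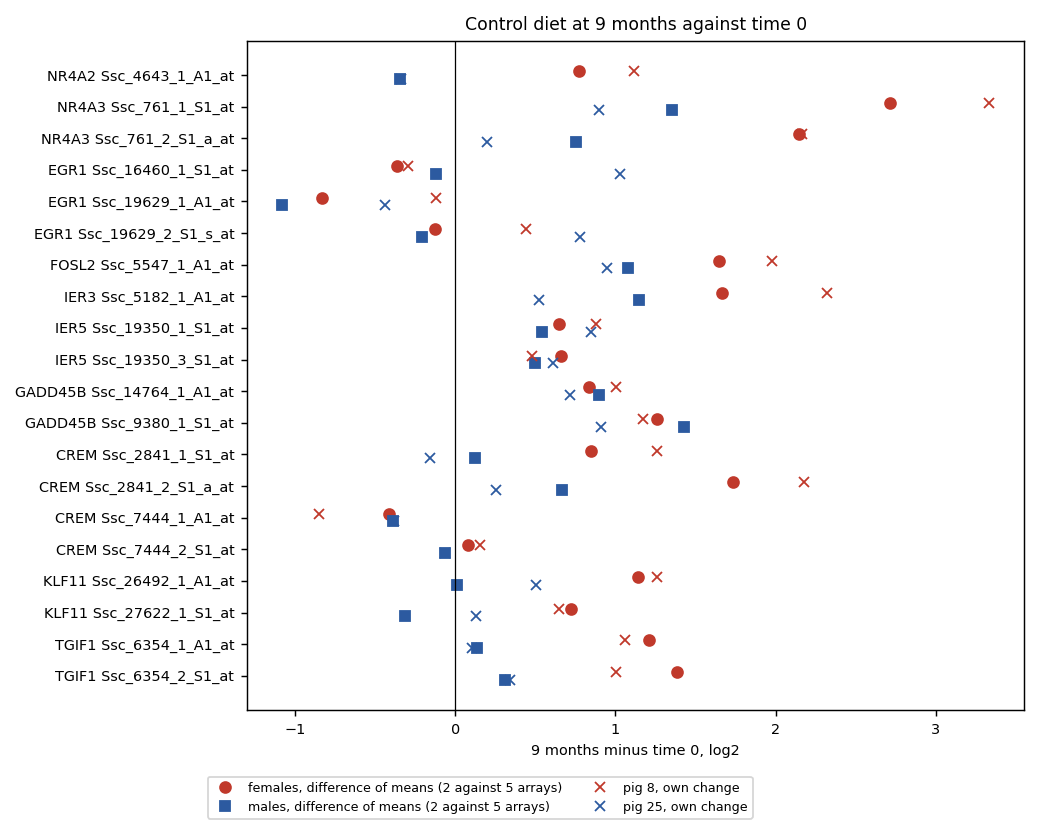
Log2 difference of 9 months minus time 0 on the control diet (x axis) for the 20 probe sets (y axis), as differences of group means in females (red circles) and males (blue squares), with the changes of pig 8 (red crosses) and pig 25 (blue crosses). NR4A3 Ssc_761_1_S1_at sits at 2.71 in females and 1.35 in males, and KLF11 Ssc_26492_1_A1_at at 1.14 and 0.01. The members were chosen by sex at time 0, so such gaps are in part built in.

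Cell markers and the actin measures of RNA quality moved with time. The mean of 14 monocyte genes was 9.66 ± 0.20 (SD, n = 4) at 9 months on the control diet and 9.33 ± 0.20 (SD, n = 10) at time 0, and 5 of the 14 were called higher. The mean of 9 T cell genes was 10.35 ± 0.08 at 9 months and 10.83 ± 0.12 at time 0, and 5 of the 9 were called lower. The mean of 4 erythroid genes was 8.83 ± 0.68 at 9 months and 10.23 ± 0.59 at time 0, with 4 of 4 lower. The mean of 4 NK cell genes was 9.64 ± 0.29 at 9 months and 10.13 ± 0.18 at time 0, with 3 of 4 called lower, and the B cell gene CD79B was called lower (-0.70). The 3' minus 5' actin difference was 1.95 ± 0.65 at 9 months and 1.42 ± 0.50 at time 0 (SD, n = 4 and 10). A second pair of actin control probe sets gave 0.28 ± 0.30 at 9 months and 0.04 ± 0.24 at time 0. The spike-in sets were cut within each time, so by that coding time and set cannot be told apart. Beyond the coding, the design cannot tell time apart from the age of the pigs, the handling date or the array batch. The part of markers and RNA quality was not tested.

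Genes outside the member list were tested for this contrast. Of 41 other immediate early genes, 22 were higher at 9 months and 0 lower in the limma fit (adjusted p under 0.05), with a median of 0.44; over all probe sets tested 17.7% were higher and 21.2% lower. The widest differences were those of the damage-response gene GADD45A (1.44, SE 0.19, adjusted p = 2.02e-05), the clock repressor BHLHE40 (1.40, adjusted p = 2.38e-05) and the ERK phosphatase DUSP6 (1.39, adjusted p = 0.000229). Of 7 paralogs of the members, which that list shares in part, 4 were higher: GADD45A, KLF10 (1.12), GADD45G (0.73) and IER2 (0.65). FOSL1 (0.21, adjusted p = 0.0505), FOS (0.20, adjusted p = 0.447) and CREB1 (0.01, adjusted p = 0.948) did not pass. The list was drawn up with earlier results of these data known.

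Genes of the upstream pathways were called at shares near the 39.0% of all probe sets called in this contrast, so their counts are given as a description. Of 9 genes of the cAMP and CREB pathway, 3 were higher (the kinase subunit PRKAR2A at 1.03, the phosphodiesterases PDE4B at 0.66 and PDE4A at 0.39) and 1 lower (the catalytic subunit PRKACB at -0.56). Of 5 genes of the ERK and SRF pathway, RPS6KA3 was higher (0.32) and MAP2K2 lower (-0.21). Of 10 partners of NR4A receptors and TGF-beta genes, SMAD4 (0.44) and SIN3A (0.26) were higher and NCOA1 (-0.30) and HDAC1 (-0.29) lower.

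Sex at 9 months. At 9 months KLF11 and NR4A3 were each higher in female cells by 1 probe set, and the other members did not pass. Of the 20 probe sets, 18 had positive female minus male differences and 2 negative, with a median of 0.28 against 0.02 over all probe sets tested. In the limma fit with Benjamini-Hochberg adjustment, 2 of 20 were higher in females and 0 lower, namely KLF11 Ssc_26492_1_A1_at and NR4A3 Ssc_761_2_S1_a_at. The background was 6.01% of all probe sets in either direction, 3.07% higher and 2.94% lower, against 10.0% of the members. With 2 of 20 called, the share of the members is near the background and is not read as an excess.

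KLF11 Ssc_26492_1_A1_at lay at 9.48, 10.00 and 10.14 (lowest, median, highest) in the 6 females of 9 months and at 9.24, 9.30 and 9.86 in the 6 males. The groups overlapped through male 26 on the high-fat diet. The difference was 0.50 (SE 0.14), or 1.42-fold, with an adjusted p of 0.0424 in limma. Its second probe set, Ssc_27622_1_S1_at, differed by 0.29 (SE 0.13, limma adjusted p = 0.190).

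NR4A3 Ssc_761_2_S1_a_at lay at 7.41, 7.64 and 8.34 in the females and at 6.85, 6.95 and 7.44 in the males. Control male 16 reached into the female range. The difference was 0.74 (SE 0.21), or 1.67-fold, with a limma adjusted p of 0.0424. The brighter probe set Ssc_761_1_S1_at differed by 0.24 (SE 0.25, limma adjusted p = 0.639), so the gene's probe sets did not share the call.

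Both calls sat near the threshold. With 1 array of 9 months left out at a time, KLF11 passed without high-fat male 26 (adjusted p = 0.0178) and gave adjusted p-values of 0.0585 to 0.160 in limma without each of the other arrays, the highest without high-fat male 23. NR4A3 passed without control female 18, control male 16 or high-fat female 30, and gave 0.0542 to 0.136 without each of the other arrays, the highest without high-fat female 27. Within spike-in set C (3 females, 4 males) and set D (3 females, 2 males) the differences were 0.36 and 0.55 for KLF11, and 0.70 and 0.80 for NR4A3. The diets were not balanced between the sexes within the sets, so these values mix diet with sex. In set D the females were all on high-fat chow, with or without resveratrol, while male 25 was on the control diet. With the sets as a block KLF11 no longer passed (0.45, adjusted p = 0.0712).

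The other members did not pass. TGIF1 differed by 0.39 in both probe sets (adjusted p = 0.114 and 0.203 in limma), NR4A2 by 0.31 (0.276), CREM by 0.27 and 0.23 in its bright probe sets, FOSL2 by 0.28 and EGR1 by 0.37 to 0.53. Without control female 18, EGR1 Ssc_19629_1_A1_at passed (0.78, limma adjusted p = 0.0171); that female had 7.73 and control female 8 had 9.22. IER3 alone among the larger values was negative, at -0.53 (limma adjusted p = 0.364), with 9.27 ± 0.54 in females and 9.80 ± 0.34 in males (SD, n = 6 each). At an unadjusted p under 0.05 there were 7 of the 20, against 21.8% of all probe sets, and 0 of the 20 were free of overlap, against 1.27% of all probe sets.

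Of the 15 member probe sets that were lower in females at time 0, 13 (86.7%) had positive differences at 9 months. Over all probe sets tested the figures were 5178 of 8294 (62.4%). This is a description with no test, since the time 0 values chose the members.

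**Figure D3:**
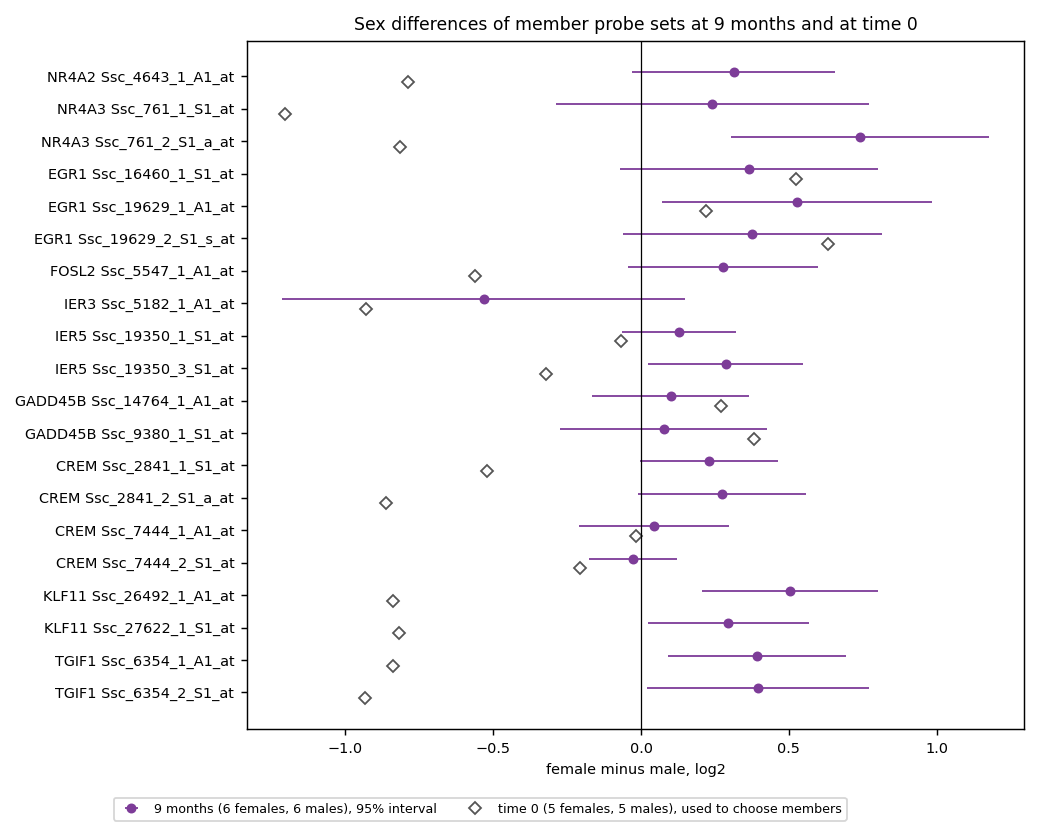
Female minus male differences on the log2 scale (x axis) of the 20 probe sets (y axis), at 9 months with 95% intervals (purple circles) and at time 0 (open diamonds, which chose the members and carry no test). KLF11 Ssc_26492_1_A1_at is at 0.50 at 9 months and -0.84 at time 0.

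Markers also differed between the sexes at 9 months. The mean of 14 monocyte genes was 9.29 ± 0.25 in females and 9.61 ± 0.24 in males (4 of 14 called lower). That of 8 granulocyte genes was 6.56 ± 0.35 in females and 7.16 ± 0.24 in males (3 of 8 lower), and that of 4 erythroid genes 8.34 ± 0.40 in females and 9.78 ± 0.61 in males (3 of 4 lower). The means of 9 T cell genes were 10.52 ± 0.12 in females and 10.27 ± 0.10 in males, and CD3E was called higher (0.54). The B cell gene CD79B was called higher (0.97), with means of 10.10 in females and 9.13 in males. The mean of 6 platelet genes was 8.54 ± 0.89 in females and 9.26 ± 0.38 in males, with negative differences in 6 of 6 and 1 called lower. The 3' minus 5' actin difference was 1.83 ± 0.45 in females and 2.28 ± 0.71 in males (SD, n = 6 each). By the second actin pair it was 0.34 ± 0.20 in females and 0.38 ± 0.36 in males. The markers and actin differences were only described. Their part in the KLF11 and NR4A3 differences was not tested. Of the other 41 immediate early genes, MYC (0.49) and ID2 (0.33) were higher and DUSP6 (-1.04) and MCL1 (-0.23) lower in females. The ERK kinase gene MAP2K2 was higher (0.29), and no paralog, CREB pathway or NR4A partner gene passed in limma. At time 0 none of the 41 passed in limma; the smallest adjusted p-values were 0.0999 for HBEGF (-1.23) and 0.117 for CXCL8 (-0.83).

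High-fat against control diet. After 9 months on the high-fat chow no member passed (0 of 20 in limma, background 0.104% of all probe sets), and 4 had an unadjusted p under 0.05 (both KLF11 probe sets, EGR1 Ssc_16460_1_S1_at and FOSL2; 11.7% of all probe sets). None was free of overlap between the diets (0 of 20, background 5.05%). KLF11 came nearest, with higher values on the high-fat diet in both probe sets. The median over the members was 0.11, with 14 positive and 6 negative differences.

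KLF11 Ssc_27622_1_S1_at was at 9.72, 9.79, 9.18 and 9.59 in high-fat pigs 27, 30, 23 and 26, and at 9.39, 8.85, 8.81 and 9.00 in control pigs 18, 8, 16 and 25. High-fat male 23 lay below control female 18, so the groups overlapped. The difference was 0.56 (SE 0.16, limma adjusted p = 0.155; 0.0913 to 0.579 over 18 alternatives, none past the threshold). Ssc_26492_1_A1_at differed by 0.41 (limma adjusted p = 0.354).

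EGR1 Ssc_16460_1_S1_at was at 8.76, 7.72, 7.22 and 7.18 in the high-fat pigs and at 7.32, 7.02, 6.37 and 7.41 in the control pigs. High-fat female 27 stood highest by a wide gap, and the males of the 2 diets overlapped. The difference was 0.69 (SE 0.25, limma adjusted p = 0.279), or 1.07 in females and 0.32 in males. The other EGR1 probe sets differed by 0.51 and 0.11. FOSL2 was the member with the lowest value, at -0.42 (SE 0.19, limma adjusted p = 0.387), with -0.17 in females and -0.67 in males. NR4A2 differed by 0.28 and NR4A3 by 0.34 and -0.10.

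The 14 monocyte genes had negative differences on the high-fat diet in 14 of 14 cases, of which 0 passed in limma, with list means of 9.24 ± 0.14 on the high-fat and 9.66 ± 0.20 on the control diet (SD, n = 4 each). The 3' minus 5' actin difference was 2.36 ± 0.56 on the high-fat and 1.95 ± 0.65 on the control diet. By the second actin pair it was 0.60 ± 0.24 on the high-fat and 0.28 ± 0.30 on the control diet. Their part in the member values was not tested, and in females diet and spike-in set cannot be told apart. No gene of the other immediate early, CREB, ERK or NR4A partner lists passed for this diet in limma; among the immediate early genes the smallest adjusted p-values were 0.375 for GADD45G (0.36) and 0.508 for PER1 (-0.25).

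Resveratrol on the high-fat diet. With resveratrol on top of the high-fat chow no member passed (0 of 20 in limma, background 0.00580%, 3 at an unadjusted p under 0.05 against 8.58% of all probe sets). The 3 were NR4A2 and EGR1 Ssc_16460_1_S1_at and Ssc_19629_2_S1_s_at, all with negative differences. The values of all 20 overlapped between the diets (background free of overlap 3.81%). Of the 20 differences, 7 were positive and 13 negative, with a median of -0.10 against 0.02 over all probe sets tested.

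NR4A2 was at 9.99, 10.26, 9.80 and 10.19 in high-fat pigs with resveratrol (21, 22, 4 and 5) and at 10.76, 10.85, 10.09 and 10.56 in high-fat pigs without it. High-fat male 23 lay below resveratrol pigs 22 and 5, so the groups overlapped. The difference was -0.50 (SE 0.20, 95% interval -0.92 to -0.08, limma adjusted p = 0.525), at -0.68 in females and -0.33 in males.

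EGR1 Ssc_16460_1_S1_at was at 7.16, 6.86, 7.32 and 7.14 with resveratrol, against 8.76, 7.72, 7.22 and 7.18 without, a difference of -0.60 (SE 0.25, limma adjusted p = 0.535). In females it was -1.23 (limma adjusted p = 0.494) and in males 0.03, and the difference between the sexes was -1.26 (SE 0.51, unadjusted p = 0.0237, limma adjusted p = 0.842). Its probe set Ssc_19629_2_S1_s_at differed by -0.58 (limma adjusted p = 0.555). NR4A3 Ssc_761_1_S1_at differed by -0.33, with -0.78 in females and 0.12 in males, and Ssc_761_2_S1_a_at by -0.14, with -0.28 in females and 0.01 in males. KLF11 differed by -0.16 and -0.22 and GADD45B by 0.06 and 0.28.

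The 14 monocyte genes had positive differences with resveratrol in 14 of 14 cases, of which 0 passed in limma, with list means of 9.45 ± 0.36 with resveratrol and 9.24 ± 0.14 without (SD, n = 4 each). By sex, 8 were positive and 6 negative in females (median 0.04), and 14 of 14 were positive in males (median 0.36). Over both sexes, 5 of 6 platelet genes (median 0.63) and 3 of 4 NK cell genes (median 0.24) were positive. Of 9 T cell genes 2 were positive and 7 negative (median -0.04), and 0 of these passed in limma. The 3' minus 5' actin difference was 1.86 ± 0.67 with resveratrol and 2.36 ± 0.56 without. By the second actin pair it was 0.20 ± 0.14 with resveratrol and 0.60 ± 0.24 without. Of the resveratrol arrays 3 of 4 lay in spike-in set C, and of the high-fat arrays 3 of 4 lay in set D. The part of these in the member values was not tested.

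The high-fat group serves both comparisons, so a member high in those 4 arrays gives opposite signs in them by construction. Side by side, the high-fat minus control and resveratrol minus high-fat differences were 0.28 and -0.50 for NR4A2, 0.69 and -0.60 for EGR1 Ssc_16460_1_S1_at, and 0.56 and -0.22 for KLF11 Ssc_27622_1_S1_at. Resveratrol pigs against control pigs, which share no array, gave -0.22 for NR4A2, 0.09 for that EGR1 probe set and 0.34 for that KLF11 probe set. None of the 20 passed in that comparison (limma, background 0.00580%, with 1.53% free of overlap; 1 at an unadjusted p under 0.05, against 5.29% of all probe sets; smallest adjusted p 0.931 for KLF11). Within each sex and for the sex-by-diet differences 0 of 20 passed in limma (backgrounds for high-fat of 0.0232% in females, 0.0290% in males and 0.00580% for their difference, and for resveratrol of 0.00580% in each sex and 0.0116% for their difference).

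By condition, the levels of NR4A3 Ssc_761_1_S1_at ran 10.55 ± 0.45 on the high-fat diet, 10.21 ± 0.18 with resveratrol and 10.21 ± 0.26 on the control diet (SD, n = 4 each), and 8.18 ± 0.86 (SD, n = 10) at time 0. The 3 diets did not differ beyond their spread. KLF11 Ssc_26492_1_A1_at ran 9.84 ± 0.42, 9.68 ± 0.38 and 9.43 ± 0.18 on the same diets and 8.86 ± 0.52 at time 0, and neighbours in this order overlapped.

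**Figure D4:**
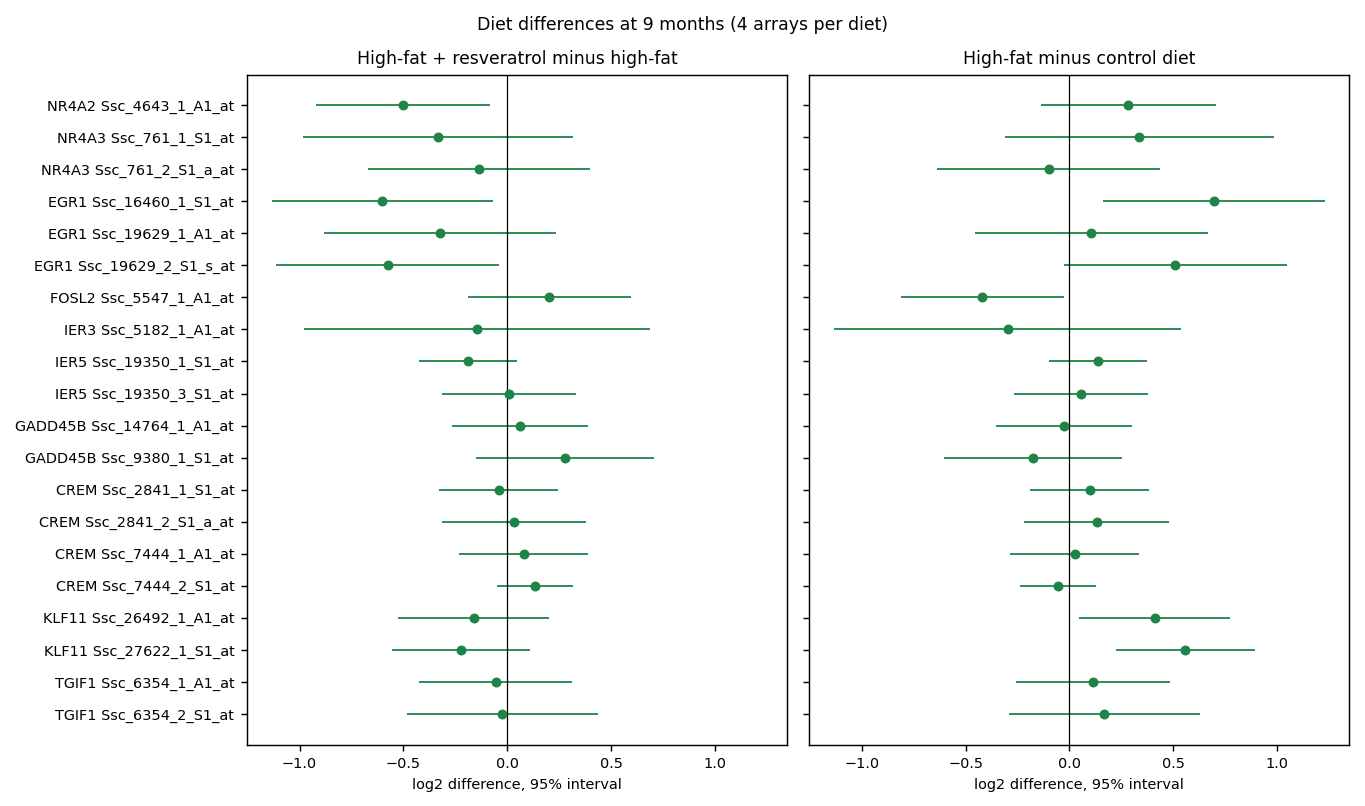
Log2 differences with 95% intervals (x axis) for the 20 probe sets (y axis), with high-fat plus resveratrol minus high-fat on the left and high-fat minus control on the right, 4 arrays per diet. Intervals of NR4A2 and EGR1 Ssc_16460_1_S1_at on the left and of both KLF11 probe sets on the right are among those that leave out 0, but no adjusted p passed.

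Variation between pigs. Within the 8 groups some members varied together from array to array, as a description over 22 arrays that share labelling and cell makeup. After centring on the groups, NR4A3 Ssc_761_1_S1_at correlated at 0.82 with IER3, at 0.79 with NR4A2 and at 0.75 with CREM Ssc_2841_2_S1_a_at. EGR1 Ssc_16460_1_S1_at correlated at -0.30 with NR4A2 and at 0.76 with IER5 Ssc_19350_1_S1_at. IER5 Ssc_19350_3_S1_at and TGIF1 Ssc_6354_2_S1_at stood at 0.80, and GADD45B Ssc_9380_1_S1_at and KLF11 Ssc_26492_1_A1_at at -0.68.

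Probe sets of the same gene varied together to unequal degrees, at 0.94 for the bright CREM pair, 0.88 for KLF11, 0.88 for TGIF1, 0.86 for GADD45B, 0.62 for NR4A3 and 0.46 for IER5. Among the EGR1 probe sets the values were 0.79, 0.60 and 0.30, the lowest between Ssc_16460_1_S1_at and Ssc_19629_1_A1_at. The dimmer CREM probe sets stood at 0.10 to 0.23 with the bright pair and at 0.38 with each other. Against the marker lists, EGR1 Ssc_19629_1_A1_at stood at -0.73 with platelet genes and NR4A3 Ssc_761_2_S1_a_at at 0.68 with monocyte genes. KLF11 Ssc_26492_1_A1_at stood at -0.61 with erythroid genes and IER3 at -0.61 with T cell genes. The EGR1 value leans on the 2 control females of 9 months. Their platelet list means were 6.88 and 8.97, and that EGR1 probe set was at 9.22 and 7.73. Both the KLF11 and the NR4A3 probe set were called higher in females at 9 months, where the erythroid and the monocyte list means were both lower in females. KLF11 Ssc_26492_1_A1_at also stood at -0.57 with granulocyte genes, at -0.50 with monocyte genes and at 0.47 with T cell genes. The marker values named first were the widest among the 20 probe sets and 5 lists. Other probe sets of these genes gave -0.42 and -0.11 for EGR1 with platelet genes. They gave 0.45 for NR4A3 with monocyte genes and -0.30 for KLF11 with erythroid genes. At time 0, where KLF11 was lower in females, the erythroid list means were 10.20 ± 0.40 in females and 10.26 ± 0.79 in males (SD, n = 5 each). The part of cell makeup in these differences was not tested.

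**Figure D5:**
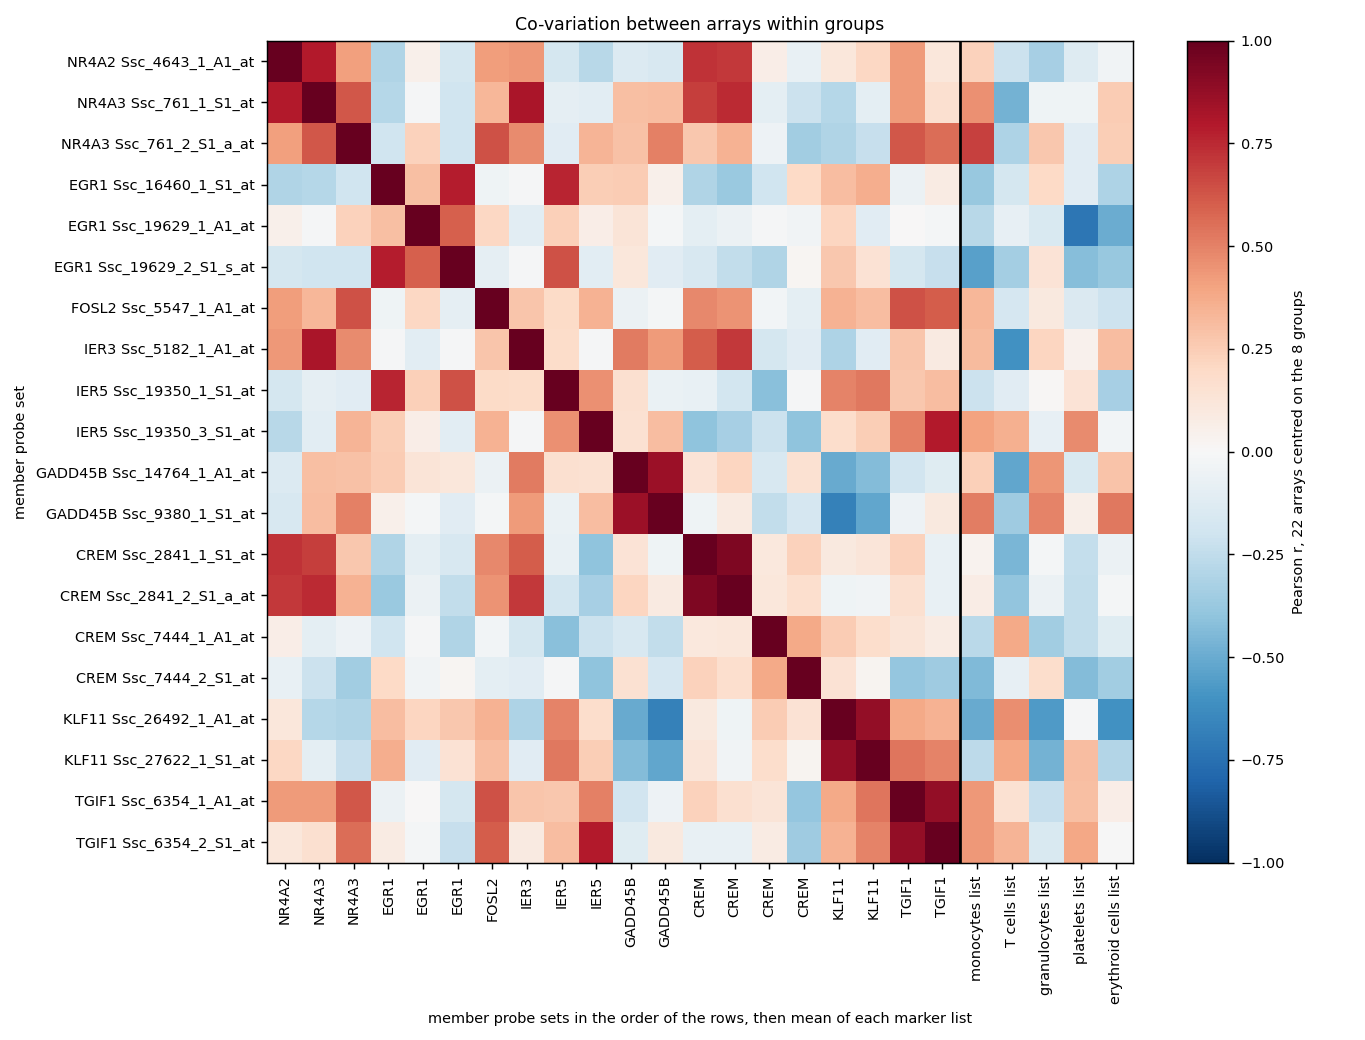
Pearson correlations over 22 arrays centred on the 8 groups, between the 20 probe sets (rows and left columns) and with the means of 5 marker lists (right columns), from -1 in blue to 1 in red. NR4A3 Ssc_761_1_S1_at and IER3 stand at 0.82, and EGR1 Ssc_19629_1_A1_at and the platelet list at -0.73. The latter value leans on the 2 control females of 9 months.

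Among 8406 other probe sets with 1 symbol, those most like NR4A3 Ssc_761_1_S1_at over the 22 log2 values were SPTY2D1 (r 0.97), ZFAND5 (0.95) and ODC1 (0.95), and after centring on the groups INSIG1 (0.91), CXCL14 (0.88) and SEPT4 (0.84). For NR4A2 they were TOB1 (0.87), HSPA13 (0.84) and DYRK3 (0.82), and after centring SPTY2D1 (0.86), TOB1 (0.86) and GLA (0.85). For the EGR1 probe set that is brightest they were SLC25A14 (0.73), VPS29 (0.73) and EVA1B (0.71), and after centring BDH2 (0.88), VPS29 (0.80) and ZRSR2 (0.79). SPTY2D1 stood in a list of each receptor, TOB1 in both lists of NR4A2, and VPS29 in both lists of EGR1.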

How the data were processed

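Blood mononuclear cells were measured on Affymetrix porcine arrays, 1 array per sample. The authors deposited linear RMA intensities, made with GCOS, RMA and Affymetrix Expression Console 1.1, per the submitters' processing notes; the genome build is not given in the sources used here. Deposited intensities were floored at 1 and log2 was taken; RMA's shared normalization removes shifts common to an array. Of 24123 probe sets, 124 controls were set aside, and of the other 23999, 10069 had 1 symbol, 198 several and 13732 none, by the array's annotation. Probe sets above a log2 of 5 in at least 2 arrays were tested (17240).

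All 22 arrays were fitted with 8 group means in limma 3.58.1 (R 4.3.3, statmod 1.5.0 for the block), two-sided, with Benjamini-Hochberg adjustment over all tested and a threshold of 0.05; recovery was tested on simulated data. Labels say that the arrays are separate samples; p-values measure the spread between them. The members and lists were chosen with earlier results of these data known, and 8 group means were used because the members differed by sex at time 0.

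Members were named as every probe set with 1 of the 10 symbols. Other genes were named if a paralog, if among the 3 largest called of a list in each direction, if among the 2 smallest p where none was called, or if among the 3 most alike. Lists used 1 probe set per gene, the brightest. Points in probe set names are written as _. Pigs 8 and 25 are the same animals at both times per the labels; their centred profiles correlated at -0.056 and 0.199, against 0.348 and 0.198 for the closest other pig of the same sex. Alternatives covered the sex term, block, filter, normalization, offset, array weights, spike-in sets and arrays left out.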

Additional observations from a re-analysis of the deposited data

Results flagged for a closer look

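In 100 combinations of a member probe set and a group of 4 or 5 arrays, 4 held an array that stood apart from its group, with a gap to the nearest array above the 95% critical value for the group's range. Chance gives about 1 in 20, or 5.0 here. At time 0, EGR1 Ssc_16460_1_S1_at was at 8.15 in female 10, above the next female at 7.43, and at 6.38 in male 25, below the next male at 7.07. IER5 Ssc_19350_1_S1_at was at 11.87 in high-fat female 27, above the next high-fat pig at 11.54. CREM Ssc_2841_1_S1_at was at 12.35 in male 15 at time 0, below the next male at 12.85. Female 10 was in spike-in set A. High-fat female 27 was also the highest array for EGR1 Ssc_16460_1_S1_at and Ssc_19629_2_S1_s_at, but not for Ssc_19629_1_A1_at.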

How the results depend on the processing

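Over the members, 3983 of 4008 alternative values kept their side of the threshold or, in contrasts with no test, moved less than the spread. Calls were lost in 24 cases, all for KLF11 Ssc_26492_1_A1_at and NR4A3 Ssc_761_2_S1_a_at between the sexes at 9 months, and 1 was gained. The main fit called no member but those 2, so nearly all of the 4008 values had no call to lose. Among the 4008, 213 changed sign, 0 of them called: 186 by leaving out 1 array, 16 with the spike-in sets as a block and 11 otherwise, 9 of these with quantile normalization, where no main value exceeded 0.09. The largest value to change sign was 0.48, for EGR1 Ssc_19629_2_S1_s_at between high-fat and control females, which was -0.02 with the spike-in block. Without the filter the adjusted p was 0.0510 for KLF11 and 0.0507 for NR4A3, and with array weights 0.0646 for KLF11. Of the diet contrasts, none called a member in any alternative run. The replicate block, with the pig as a random effect, changed no member call, and gave 18 probe sets for high-fat against control, 1043 for sex at 9 months, 184 for sex at time 0 and 6699 for time.

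Counts over all probe sets moved more, for causes not tested. High-fat against control (18) gave 0 with an additive sex term, 6 with array weights, 2 with the spike-in block and 36 without time 0 females 6 and 10. Resveratrol against high-fat (1) gave 0 with the additive term or the stricter filter and 3 with array weights, and against control (1) 0 with the additive term or the 12 arrays alone. In females, high-fat against control (4) gave 1 with array weights, the spike-in block, the 12 arrays alone or without females 6 and 10; in males (5) it gave 3 with no filter and 0 with array weights or the 12 arrays alone, and the difference of the sexes (1) gave 0 with the stricter filter. For resveratrol the stricter filter gave 0 in females, males and their difference, array weights gave 37 in females, the spike-in block 2 in males and 1 for the difference, the 12 arrays alone 0 in males and 1 for the difference, and the set without females 6 and 10 gave 1 for the difference. Sex at time 0 (184) gave 25 with the spike-in block and 28 without females 6 and 10.

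Leaving out 1 array gave 3 to 217 probe sets for high-fat against control, 217 without control male 25 and 132 without high-fat male 26, 1 to 79 for resveratrol against high-fat (79 without high-fat male 26), 1 to 49 for resveratrol against control (49 without control female 18), 319 to 1441 for sex at 9 months (319 without high-fat male 23, and 412 to 662 without each other array of 9 months but control female 18, control male 16 and high-fat male 26), 38 to 395 for sex at time 0 (38 without male 11, 395 without female 20) and 5126 to 6857 for time. Within the sexes the ranges were 1 to 27 in females and 1 to 1660 in males for high-fat (27 without control female 18, 1660 without control male 25 and 251 without high-fat male 26), with 1 to 154 for their difference (154 without control male 25), and 1 to 2, 0 to 128 and 1 to 54 for resveratrol in females, in males and for their difference (128 and 54 without high-fat male 26). Time could not be fitted with the spike-in sets as a block, because the sets were cut within each time. The number of arrays limits all of these.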
